A study of Mus musculus with 15 samples.

Results

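Gm4340, Gm6763 and B020031M17Rik are 3 mouse genes that carry provisional names and have been listed among genes of the 2-cell (2C) stage. They are 3 of the 51627 genes in a table from embryonic stem cells (ESCs) and 3 of the 53564 genes in a table from 2-cell embryos, and each was found once in both tables by its symbol. The members were chosen by measured values of these same libraries: Gm4340 and Gm6763 by their rise with Zscan4 overexpression in ESCs, and B020031M17Rik by its fall with Zscan4 RNAi in embryos. Those values are therefore described without a test, and tests are given only for the comparison that did not bring a gene forward.

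The ESC groups were J1 cells, a mouse ESC line cultured without feeder cells, labelled wild type (2 control libraries) or Zscan4 OE, for overexpression (2 libraries), all at passage label PN+8. The embryo groups were 2-cell embryos labelled wild type (5 control libraries) or Zscan4 RNAi (6 libraries). The overexpression construct, the RNAi reagent, the mouse strain of the embryos, their hour of collection and the number of embryos in a library are not given in the labels. The titles say RNA-Seq, whereas the fields for molecule and kit describe DNA; the values are reads per gene and were treated as RNA-Seq.

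Around the 2-cell stage the mouse embryo begins transcription from its own genome. Many of the genes read at that time belong to clusters of recent, nearly identical copies, and a small fraction of cultured ESCs switches the same set on. Zscan4, a cluster of SCAN-domain zinc finger genes, belongs to it. So do Tcstv1 and Tcstv3, whose name stands for 2-cell-stage variable group members, and which resemble B020031M17Rik in sequence. Gm4340 and Gm6763 resemble Alyref, which encodes an adaptor that couples messenger RNA to the export machinery of the nucleus.

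Gm4340 (ENSMUSG00000090854) lies at chr10:104194042-104196522 on the plus strand of mm10 (GENCODE vM21 annotation, the same assembly), has 2 exons and overlaps no other gene. Its coding part, 804 bases without the stop codon, lies in 1 exon, at chr10:104195397-104196200. Gm6763 (ENSMUSG00000097427) lies at chr10:104151497-104153965 on the same strand, also has 2 exons, and overlaps Gm21293. Both stand in a row of 7 copies, Gm21293, Gm6763, Gm8764, Gm21304, Gm21312, Gm20765 and Gm4340, whose starts follow each other at steps of 8509 to 8510 bases. In each of the 5 other copies besides Gm4340, an annotated transcript is letter for letter identical to the longest of Gm6763. The longest transcript of Gm4340 differs from it by 12 inserted bases at coding positions 730 to 741, which keep the reading frame, with 0 substitutions. The stretch around that insertion is shown because these letters are all that tells these transcripts of Gm4340 and Gm6763 apart. Capitals mark the bases that Gm6763 lacks. Because the stretch is a repeat, the insertion could be placed at several equivalent positions in it.
Gm4340, chr10:104196086-104196177, plus strand: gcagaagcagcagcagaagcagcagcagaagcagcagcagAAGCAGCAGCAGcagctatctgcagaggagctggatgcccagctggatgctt
Gm6763, chr10:104153541-104153620, plus strand: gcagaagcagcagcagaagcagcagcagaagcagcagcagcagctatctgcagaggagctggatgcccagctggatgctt

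Of the 1209 windows of 50 bases along the Gm4340 transcript, 98.8% occur in another annotated gene and 14 are its own. For Gm6763 the share is 100% of 1197 windows, and at 100 bases the shares are 94.5% for Gm4340 and 100% for Gm6763. The sources used here do not say how reads matching several genes were handled. The split of reads between the 7 copies is therefore uncertain, and the sum over the row is given beside each single copy.

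B020031M17Rik (ENSMUSG00000078537) lies at chr13:119949357-119950806 on the minus strand, has 2 exons and overlaps no other gene. Its coding part of 519 bases without the stop codon lies in 1 exon, at chr13:119949550-119950068. It is far easier to tell apart: 2.97% of its 876 windows of 50 bases, and 0% of its 826 windows of 100 bases, occur in another gene. The first 60 coding bases are shown with those of Gm20767 and of Tcstv1 and Tcstv3, since they show the kinship on which the family comparison below rests; capitals in the relatives mark bases that differ from B020031M17Rik, 2 in Gm20767 and 5 in each Tcstv gene.
B020031M17Rik, chr13:119950009-119950068, minus strand: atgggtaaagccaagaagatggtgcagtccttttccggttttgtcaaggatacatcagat
Gm20767: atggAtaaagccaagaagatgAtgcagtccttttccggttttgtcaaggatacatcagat
Tcstv1: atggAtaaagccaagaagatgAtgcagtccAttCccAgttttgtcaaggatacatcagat
Tcstv3: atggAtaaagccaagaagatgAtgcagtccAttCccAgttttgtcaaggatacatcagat

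The sequence before the start of Gm4340 is shown because most other copies of the row share it almost entirely. Whether it bears on their levels was not tested. In the RefSeq promoter table (GRCm38.p6), the 250 bases before the start differ from those of Gm4340 at 0 bases in Gm21312 and at 1 base each in Gm20765, Gm21293, Gm21304 and Gm8764. Gm6763 and B020031M17Rik had no entry. Capitals mark the letters GGATTA, the core bound by Otx and Obox type homeobox proteins, found 1 time, at -89 from the start; 6.25% of the 32851 windows of this length in the table hold it on either strand. The letters TGCACAC, known as a core of the Zscan4 motif, had 0 matches in this window on either strand (3.67% of windows hold them), and TATAAA had 0 (12.4% of windows). These 3 motifs do not overlap in letters, and a match or its absence describes this window alone.
Gm4340, chr10:104193792-104194041, plus strand: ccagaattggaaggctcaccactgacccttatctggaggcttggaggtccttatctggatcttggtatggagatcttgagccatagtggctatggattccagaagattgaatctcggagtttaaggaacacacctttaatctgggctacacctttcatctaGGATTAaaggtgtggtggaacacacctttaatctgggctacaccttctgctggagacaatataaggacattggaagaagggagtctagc

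Levels are given as normalised reads, that is reads per gene divided by 1 size factor per library. The libraries held 21820093 to 26555027 reads assigned to genes in ESCs and 695524 to 1432566 in embryos, so that 1 read was worth 0.912 to 1.19 normalised reads in ESCs and 0.687 to 1.39 in embryos. Replicates of each group differed by more than sampling noise. Within ESCs the excess was larger between the overexpression libraries (chi-square per degree of freedom 128) than between the controls (2.69). In embryos the same statistic ranged from 7.14 to 21.6 for controls and from 9.81 to 24.8 for RNAi. It depends on read depth, which differed between the tables, so ESC and embryo values are not ranked against each other. The summed Zscan4 genes went from 182 ± 41.9 (SD, n = 2) to 19730 ± 393 (SD, n = 2) in ESCs, with an exact permutation p of 0.333, the smallest that 2 against 2 can give. In embryos the sum was 734 ± 272 (SD, n = 5) in controls and 230 ± 142 (SD, n = 6) with RNAi, lower at an exact two-sided permutation p = 0.013, although RNAi libraries reached 383 and controls began at 345. Both labels thus matched the targeted genes in direction. All 10 ESC markers were detected in J1 cells. Fibroblast markers summed to 32020 to 35160 in the ESC controls and 22380 to 41800 with overexpression, with Dcn, Lum and Postn at 0 in the controls. In embryos, 5 of 10 cumulus and granulosa markers were at 0 in each group and the sums were 5.03 to 17 in controls and 4.10 to 12.8 with RNAi. Nothing in the labels states that libraries of a group come from separate cultures or embryo pools, so p-values describe the spread between these libraries, which may be technical.

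In ESCs, Gm4340 stood at a low level in both controls and far higher in both overexpression libraries. It measured 32.4 and 31.8 normalised reads in control 1 and control 2 (34 reads each) and 1316 and 2073 with overexpression. The groups did not overlap, and overexpression library 2 was the higher. The ratio of group means was 52.8, between 32.1 ± 0.392 (SD, n = 2) and 1695 ± 535 (SD, n = 2), and the log2 fold change on the log2(value + 1) scale was 5.64. In bulk libraries such as these, more cells with the transcript and more transcript per cell cannot be told apart.

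Gm6763 measured 9.52 normalised reads (10 reads) in control 1, no read in control 2, and 493 and 595 with overexpression. Again the groups did not overlap, and the overexpression libraries lay close together. Its log2 fold change was 7.39. That size rests on a single control: it was 5.69 without control 2 and 9.08 without control 1.

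Over all 20888 genes tested in ESCs, 11.7% were called higher and 11.4% lower at an adjusted p under 0.05 (limma, Benjamini-Hochberg). The 2 libraries of each group did not overlap for 34.2% of genes in the upward direction and for 34.6% in the downward one, so absence of overlap is common here. Gm4340 and Gm6763 were among those called higher, as their choice implies, and nothing is read from that.

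B020031M17Rik was almost silent in ESCs. It had no read in either control and 2 and 4 reads, or 1.82 and 4.77 normalised reads, in the overexpression libraries. With a floor of 3 reads over the controls (a mean of 1.42 normalised reads), the mean of 3.30 ± 2.08 (SD, n = 2) with overexpression was 2.33-fold that floor. This ratio leaves out the counting error of the 6 reads with overexpression, so it is no lower bound. The fitted log2 fold change of 2.01 (SE 0.58, 95% interval 0.45 to 3.57) depends on the pseudocount of 1, and the gene was not called (limma, adjusted p = 0.0726). The adjusted p stayed between 0.0586 and 0.445 under the other settings that gave one.

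**Figure D1:**
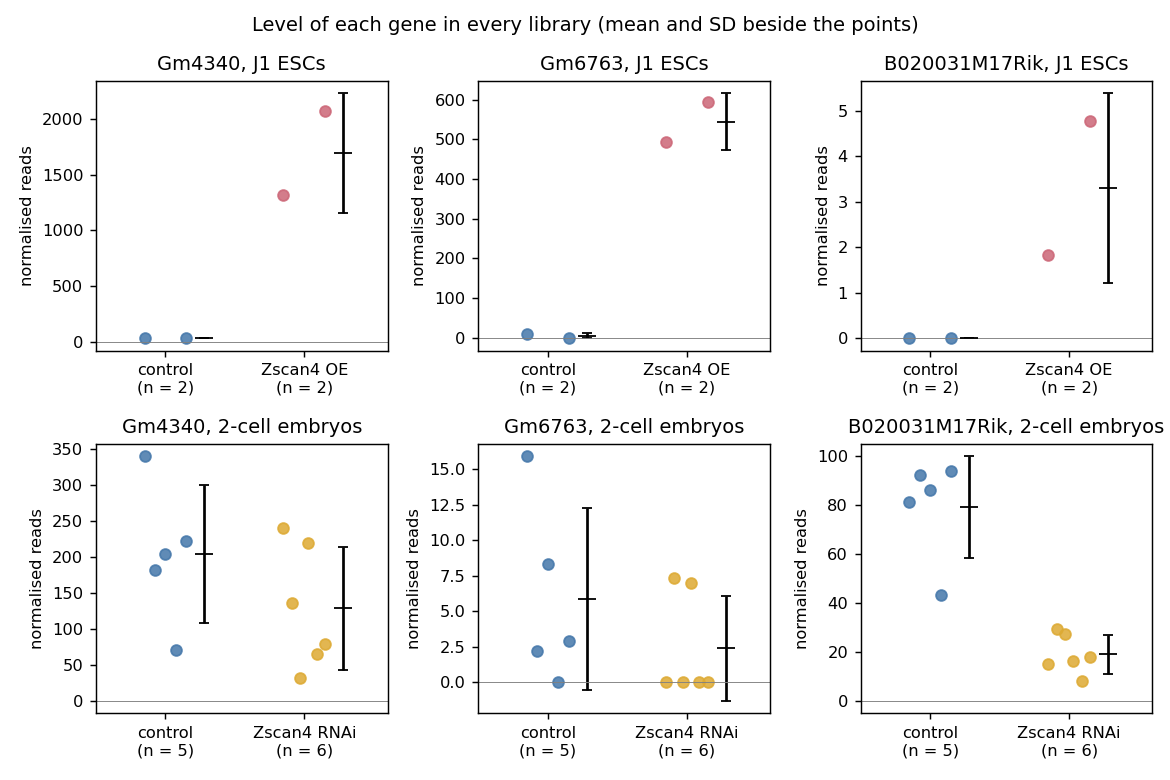
Normalised reads (vertical axes, each with its own scale) of the 3 genes in every library of J1 ESCs (upper row) and 2-cell embryos (lower row); points are libraries, and the black marks beside them give the mean and SD. Gm4340 and Gm6763 were high in both overexpression ESC libraries, whereas in embryos only B020031M17Rik had groups that did not overlap, 43.3 to 93.8 in controls and 8.11 to 29.5 with RNAi.

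In 2-cell embryos, B020031M17Rik was lower in every RNAi library than in any control. Controls 1 to 5 held 81.3, 92.2, 86.3, 43.3 and 93.8 normalised reads, and RNAi libraries 1 to 6 held 15.1, 29.5, 27.4, 16.2, 8.11 and 18.2. Control 4 was the lowest of its group by a wide gap and still lay above RNAi 2, the highest of the other. The means were 79.4 ± 20.8 (SD, n = 5) and 19.1 ± 8.03 (SD, n = 6), so the controls were 4.16-fold higher, from 417 and 123 reads in all. The log2 fold change was -2.06, and between -2.26 and -1.85 when any 1 library was left out.

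Of 16417 genes tested in embryos, 12% were called lower and 6.13% higher. Groups without overlap made up 4.28% of genes for lower and 3.05% for higher. B020031M17Rik was called lower and had groups without overlap, which its choice implies. Beside this fall, transcripts stored in the oocyte summed to 10860 to 17710 normalised reads in the controls and to 36720 to 58660 with RNAi. Of these 16 genes, 6 were called higher and 0 lower, and their median log2 fold change was 1.16 against -0.03 over all genes tested. Their part in the fall of B020031M17Rik was not tested.

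Gm4340 in embryos had no such separation. Controls 1 to 5 held 340.5, 182, 205, 71.4 and 223 normalised reads. RNAi libraries 1 to 6 held 241, 137, 32.6, 219, 64.9 and 79.0. RNAi 1 lay above all controls but control 1, and control 4 lay below 4 of the RNAi libraries. The means were 204 ± 96.2 (SD, n = 5) and 129 ± 85.7 (SD, n = 6), and the log2 fold change was -0.81 (SE 0.47, 95% interval -1.79 to 0.17), which was not called (limma, adjusted p = 0.236). The log2 fold change was -0.49 without RNAi 3 and -1.15 without control 4, and no setting gave a call (adjusted p 0.11 to 0.472).

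Gm6763 was barely detected in embryos, with 31 reads over the 5 controls and 15 over the 6 RNAi libraries. Controls 1 to 5 measured 15.9, 2.21, 8.35, 0 and 2.93 normalised reads. RNAi 2 and RNAi 4 measured 7.38 and 6.97, and the other 4 RNAi libraries had no read. The groups overlapped, and the log2 fold change of -1.18 (SE 0.80, 95% interval -2.84 to 0.47) was not called (limma, adjusted p = 0.314).

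The order of the 3 genes was set on the RPKM scale, computed here from assigned reads and the exon length of each gene, since levels of different genes are comparable only per length; the tables were normalised separately. In embryo controls Gm4340 had an RPKM of 169 ± 80.3 (SD, n = 5), B020031M17Rik 92.3 ± 27.1 and Gm6763 4.83 ± 5.16; the ranges of the first 2 overlapped, at 57.0 to 274 and 48.7 to 123. In overexpressing ESCs the RPKM was 51.5 ± 13.7 (SD, n = 2) for Gm4340, 16.8 ± 1.37 for Gm6763 and 0.140 ± 0.0826 for B020031M17Rik, without overlap between genes. In ESC controls the RPKM was 1.0 ± 0.00925 for Gm4340, 0.150 ± 0.212 for Gm6763 and no read for B020031M17Rik. The order of Gm4340 and Gm6763 within the row of copies carries the uncertainty of their shared sequence.

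The whole row was higher with overexpression, as Gm4340 was. Summed over the 7 copies, ESC controls held 86.7 and 122 normalised reads and overexpression libraries 4462 and 5876, a ratio of means of 49.6. Each of the 5 copies besides Gm4340 and Gm6763 was also called higher (limma, log2 fold changes 3.98 to 7.84). Each has an annotated transcript equal to the longest of Gm6763, so these calls are not separate from the values that chose the members. Nothing is read from these calls. Gm21293, which overlaps Gm6763, went from 22.5 ± 19.8 to 1002 ± 221 normalised reads (SD, n = 2 each), Gm21304 from 31.1 ± 10.3 to 493 ± 22.8, Gm20765 from 6.55 ± 9.27 to 530 ± 4.88 and Gm21312 from 6.19 ± 8.76 to 515 ± 85.5. Gm8764 had 2 reads over the controls and 390 ± 58.3 normalised reads with overexpression. Gm4340 made up 26.2% and 37.4% of the row in the controls and 29.5% and 35.3% with overexpression. Gm6763 made up 10.1% and 11.1% with overexpression.

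In embryos the same row held 126 to 646 normalised reads in controls (median 384) and 40.4 to 403 with RNAi (median 168), and the groups overlapped. Gm4340 alone took 52.7% to 59.7% of it in controls and 54.6% to 82.8% with RNAi, a larger share than in any ESC library. Gm21304 came next with 21.8% to 33.0% in controls, although it has an annotated transcript equal to those of Gm6763 and 4 others that took far less. Gm21304 measured 41.0 to 141 normalised reads in controls and 7.82 to 143 with RNAi; it was called lower (limma, log2 fold change -2.02, adjusted p = 0.0238), a call lost without controls 1, 2 or 3 or RNAi 3 or 6 and in all 3 count-based fits. Gm21312 was called lower too (log2 fold change -2.50, adjusted p = 0.0273), and lost that call without control 1, which alone held 79.7 against at most 5.57 in the other controls, without RNAi 3 or RNAi 4 and with no filter on low values. Gm20765 and Gm21293 were not called, and Gm8764 did not pass the filter on low values.

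**Figure D2:**
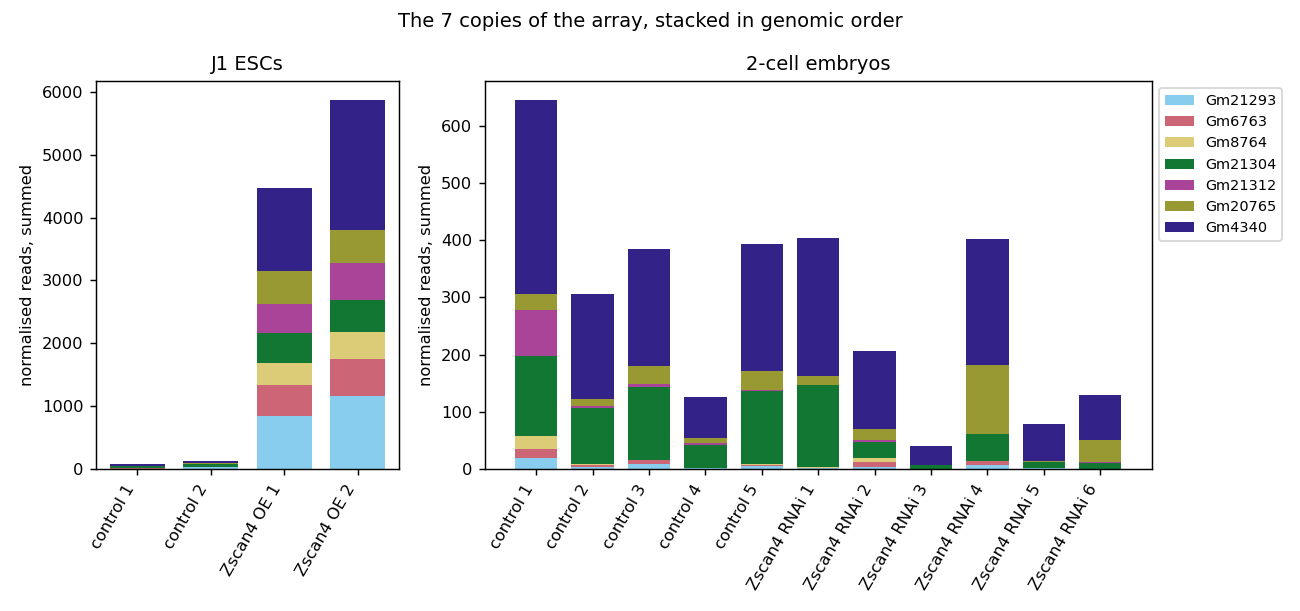
Normalised reads of the 7 copies in each library (horizontal axis), stacked in the order in which the genes lie on the chromosome, in ESCs (left) and embryos (right; the vertical scales differ). Overexpression libraries reached 4462 and 5876 in all copies together; in embryos Gm4340 and Gm21304 made up most of each control bar and the totals of the groups overlapped.

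A wider search for relatives compared transcripts by sequence, requiring at least 50% identity over at least 50% of the member in 1 alignment. Gm4340 and Gm6763 had the same number of relatives, 28 each: the other 6 copies of the row, 15 genes and pseudogenes in a second cluster at chr10:100297941-100397070, 3.75 Mb away, and 7 genes on chromosome 1. Alyref itself aligned with 82.57% identity over 568 bases, short of the required length.

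The second cluster on chromosome 10 was higher with overexpression in ESCs, at far lower levels than the row. Its genes align with Gm4340 at 84.98% to 94.55% identity, and the handling of reads matching several genes is not given. Whether reads counted here came from the row was not tested. Of its 15 genes 8 passed the filter, and 6 were called higher and 0 lower, where 11.7% of all genes tested were called higher and 11.4% lower. Their median log2 fold change was 3.53 against -0.02 over all genes tested. Gm4302, a protein-coding copy, had no read in the controls and 59.2 and 59.6 normalised reads with overexpression. The sum went from 0 and 5.62 normalised reads in the controls to 168 and 218.

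In embryos this cluster and the row had log2 fold changes of opposite sign, a difference that was not tested. Of the 12 genes of the cluster that passed the filter, 12 had a log2 fold change above 0 (median 1.68, against -0.03 over all genes tested). Limma called 0 of them, with 5 at an unadjusted p under 0.05, voom with quality weights 0, edgeR 2 and DESeq2 5, all higher. Of the 5 copies of the row besides Gm4340 that passed it, 5 were below 0, of which Gm20765 turned positive in edgeR and DESeq2. The cluster summed to 123, 29.5, 68.2, 4.68 and 6.84 normalised reads in controls 1 to 5, and to 94.1, 266, 145, 1186, 19.8 and 44.3 in RNAi 1 to 6. RNAi 4 stood far above the rest, and the groups overlapped. Without RNAi 4 the median was 1.18, with 10 of 11 genes above 0. Without RNAi 5 limma called 1 of the 12, Gm8723 (log2 fold change 2.24, adjusted p = 0.0432). Gm8723, the most abundant of the cluster in embryos, held 1.96 to 21.8 normalised reads in controls and 250 in RNAi 4, against at most 33.9 in the other RNAi libraries. Gm4312, Gm8711 and Gm4308 reached 203, 187 and 122 in RNAi 4, where the other RNAi libraries reached at most 31.3, 26.1 and 29.5.

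**Figure D3:**
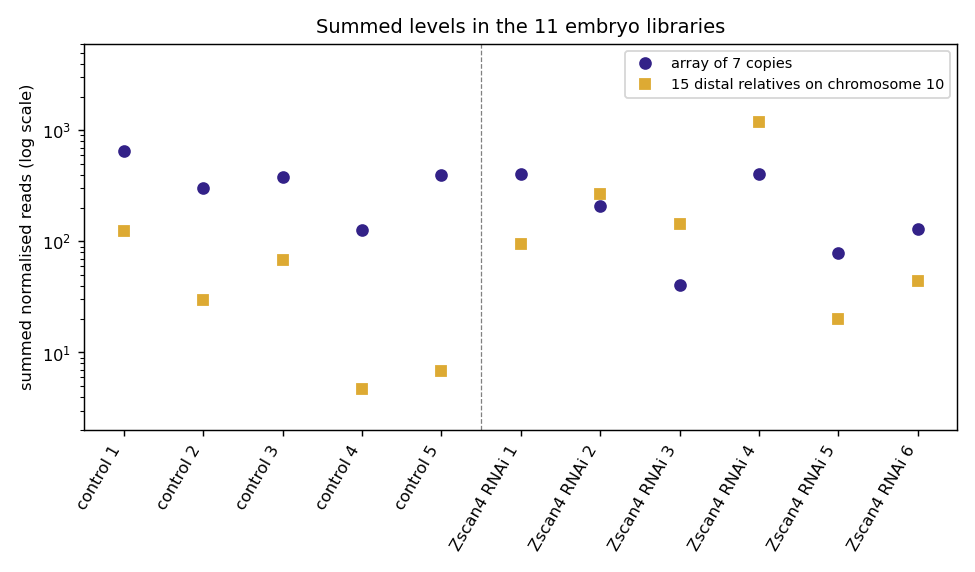
Summed normalised reads (vertical axis, log scale) of the row of 7 copies (circles) and of its 15 relatives in the second cluster on chromosome 10 (squares) in each embryo library, controls left of the dashed line and RNAi right of it. The cluster stood highest in RNAi 4, at 1186, and the row ranged from 40.4 to 646.

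No relative on chromosome 1 was called higher in ESCs. 4931428L18Rik, the most abundant relative in embryos, measured 84.7 ± 32.6 normalised reads (SD, n = 5) in controls and 133 ± 46.4 (SD, n = 6) with RNAi, was near 0 in ESCs, and was not called in either. The pseudogenes Gm6489 and Gm9458 were not called in embryos (limma, adjusted p = 0.378 and 0.7). Alyref2, a retained relative of Alyref, measured 90.8 ± 21.1 and 74.0 ± 10.2 normalised reads in control and overexpressing ESCs (SD, n = 2 each), which was not called. In embryos Alyref2 was called higher, at 77.1 ± 22.6 against 36.2 ± 18.6 (limma, adjusted p = 0.0408). Alyref was called lower there, at 6.14 ± 3.10 against 20.3 ± 8.03 (log2 fold change -1.63, adjusted p = 0.0401), and was not called in ESCs, at 2917 ± 583 against 3569 ± 23.5. Without overexpression library 2, the log2 fold change of Alyref in ESCs was -0.51. Both embryo calls were fragile: Alyref lost its call in 11 of 19 alternatives and Alyref2 in 10 of 20, mostly when 1 library was left out.

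B020031M17Rik had 13 relatives by the same rule, with 73.24% to 91.03% identity: 11 on chromosome 13, which with it form a scattered family, Gm8953 on chromosome 5 and the pseudogene Gm49052 on chromosome 14. Most of the family fell with it in embryos. All 13 passed the filter, 10 were called lower and 0 higher, and 7 had groups without overlap. Of all genes tested, 12% were called lower, 6.13% higher, and 4.28% were lower without overlap. The median log2 fold change was -1.84, against -0.03 over all genes tested. The relatives share 2.42% (Gm49052) to 92.4% (D13Ertd608e) of their 50-base windows with another gene, so their calls are not all separate observations. When any 1 library was left out, 10 or 11 were called lower.

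Within the family the size of the fall varied. Gm21762 went from 145 ± 70.2 to 16.9 ± 18.6 normalised reads (SD, n = 5 and 6), D13Ertd608e from 146 ± 69.8 to 23.6 ± 19.9 and Gm21731 from 271 ± 109 to 62.0 ± 43.8. AF067063 measured 170 to 486 in controls and 30.4 to 126 with RNAi, BC147527 144 to 402 and 17.4 to 98.4, and Gm21818 149 to 368 and 29.0 to 122; none of these 3 had overlapping groups. Gm21761, the nearest measured relative at 21.5 kb, measured 69.4 to 135 in controls and 9.29 to 59.9 with RNAi. Gm21762, AF067061 and Tcstv3 were called lower with groups that overlapped. Gm21762 began at 50.8 in controls and reached 52.5 with RNAi. The means were 200.4 ± 44.05 and 80.7 ± 53.6 for AF067061 and 333 ± 157 and 127 ± 58.4 for Tcstv3. The calls of AF067061 and Gm21761 were lost in edgeR's quasi-likelihood test, and the other 8 of the 10 were kept in every alternative that tested them.

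Tcstv1 was not called. It measured 188 to 428 normalised reads in controls and 130 to 294 with RNAi (limma, log2 fold change -0.29, 95% interval -0.92 to 0.33, adjusted p = 0.529). Gm20767, whose first coding bases are the closest to those of B020031M17Rik printed above, measured 30.2 to 116 and 6.97 to 89.3 (log2 fold change -1.31, adjusted p = 0.0802), and was called when control 1 or RNAi 1 was left out. The third without a call, Gm49052, had few reads.

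In ESCs levels within the family differed widely. Of the 10 relatives that passed the filter 6 were called higher and 0 lower, where 11.7% of all genes tested were called higher and 11.4% lower. Their median log2 fold change was 3.27 against -0.02 over all genes tested. Gm21761 rose from 9.39 ± 7.90 to 465 ± 142 normalised reads (SD, n = 2 each), AF067061 from 7.04 ± 5.92 to 189 ± 34.9 and Tcstv3 from 6.11 ± 4.6 to 92.4 ± 26.2. Gm21762 reached 55.5 ± 7.54, D13Ertd608e 31.1 ± 11.7 and BC147527 11.9 ± 0.05. Gm8953 on chromosome 5 was not called. Tcstv1, Gm21818 and AF067063 stayed at or below 9.54 in every library and were not called, Gm20767 had 4 reads in 1 overexpression library, and Gm21731 had none. B020031M17Rik stood with these last, at 0.261% and 0.466% of the summed chromosome 13 family in the overexpression libraries, where Gm21761 alone made up 52.2% and 55.2%. In embryos the same sum held 1578 to 3792 normalised reads in controls and 571 to 1370 with RNAi. The share of B020031M17Rik in it was 2.17% to 5.95% in controls and 1.10% to 4.13% with RNAi, and these ranges overlapped. The relatives share up to 92.4% of their 50-base windows with another gene (D13Ertd608e), so single values within the family are less certain than that of B020031M17Rik.

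**Figure D4:**
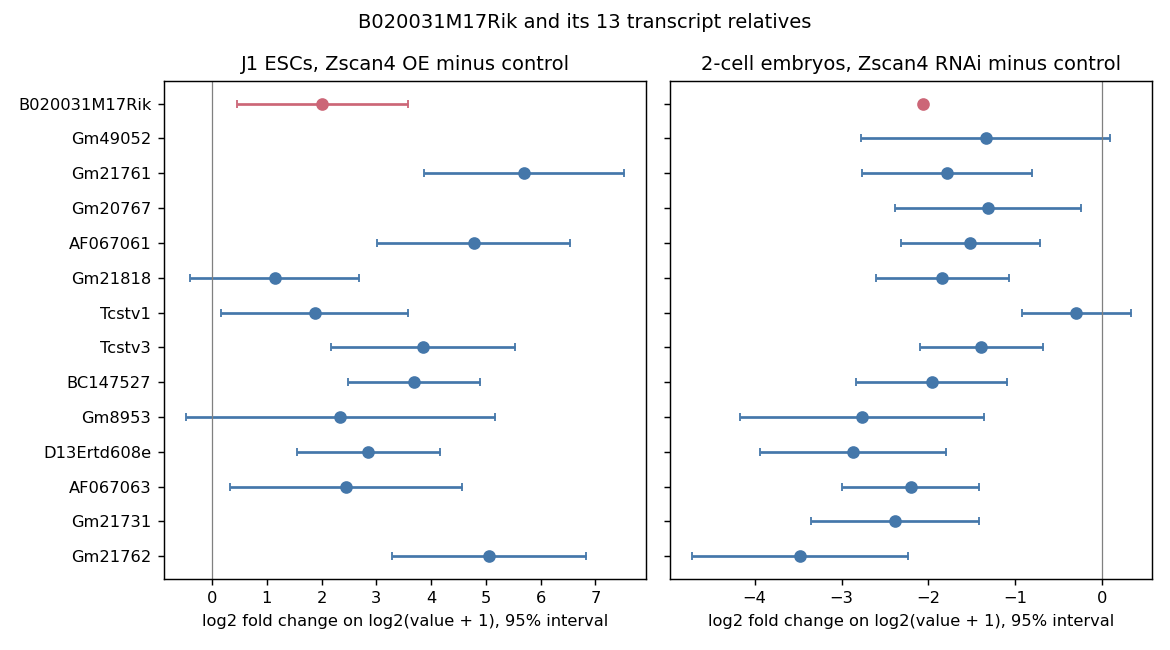
Log2 fold change on the log2(value + 1) scale (horizontal axes) of B020031M17Rik (red) and its 13 relatives (blue) with overexpression in ESCs (left) and with RNAi in embryos (right); bars are 95% intervals of limma, left out for the value that chose B020031M17Rik, and a missing point is a gene that did not pass the filter. In embryos all 13 relatives lay below 0, with Tcstv1 at -0.29; in ESCs Gm21761 was highest at 5.70, and B020031M17Rik, fitted on no control read, stood at 2.01.

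Neighbours were taken as genes that start within 250 kb. Around Gm4340 and Gm6763 the annotation has 12 other genes each. Those that had any read were the other 6 copies of the row and no one else, in either table; the 6 remaining genes had no read in any library. Around B020031M17Rik stand 25 genes, of which 6 are relatives. Of the 19 that are not, 6 passed the filter in embryos, with 1 called lower and 0 higher, and 2 passed it in ESCs, with 1 called lower. Over all genes tested, 12% were called lower and 6.13% higher in embryos, and 11.4% lower in ESCs. With so few neighbours tested, nothing is read from these counts. Zfp131, a zinc finger gene 160 kb away, was called lower in embryos, at 279 and 99.2 normalised reads in control and RNAi means (log2 fold change -1.45, adjusted p = 0.0147), and was not called in ESCs with all libraries. The ESC log2 fold change of Zfp131 was 0.86 without overexpression library 2 and -0.099 without overexpression library 1. Nim1k, a kinase gene 195 kb away, went from 60.3 to 12.6 normalised reads in ESCs and was called lower, a call lost when either control was left out and in voom with quality weights. Gm48342, Gm20763 and Gm21358 were not called in embryos, and Gm20784 and Gm21378 had too few reads in ESCs to be tested.

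Likeness over libraries was measured as the root mean square difference between log2(value + 1) profiles, each centred on its own mean, among genes with a mean of at least 10. Over the 4 ESC libraries (15888 genes) the 5 nearest to Gm4340 were Gm21542, BC080695, Gm42634, Serpina3m and Timd2, at 0.0251 to 0.146, of which the first 4 had no read in the controls. Nearest to Gm6763 were Gm21312, a copy with an identical transcript, at 0.178, then Galntl6, AC154368.2, AC153544.1 and Akr1cl. Nearest to B020031M17Rik were Josd2, 2310036O22Rik, Stmn3, Ifitm3 and 6030419C18Rik, which are all far more abundant. With 4 libraries many profiles are alike, and only 3 of these 15 genes stayed among the nearest with a pseudocount of 5.

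Over the 11 embryo libraries (9275 genes) the nearest to B020031M17Rik were Bod1l, Rab10os, Cwc22, Ube2q2 and Fbxo33, at 0.45 to 0.562. Cwc22, a spliceosome component, went from 64.6 ± 14.8 to 25.2 ± 11.7 normalised reads, and Bod1l from 30.3 ± 9.98 to 7.26 ± 4.78 (SD, n = 5 and 6). The nearest to Gm4340 were Gm9917, Calr, Unk, Plin2 and Med19, at 0.449 to 0.562. Those nearest to Gm6763, Cdh3, Lama5, Ergic3, Gcdh and Taf11, stood at 0.838 to 1.02, farther than for the other 2 genes. No relative and no gene of the 2C list below was among these 15.

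Other genes of the 2C programme were mostly called higher in ESCs, and more often lower than higher in embryos. A list of 67 other genes of that programme, written with results of these data known and so no independent evidence of direction, had 62 measured members; 4 of the 67 are relatives of B020031M17Rik. In ESCs 50 passed the filter, 36 were called higher and 1 lower, and the median log2 fold change was 3.84 against -0.02 over all genes tested. Of all genes tested, 11.7% were called higher and 11.4% lower. The list includes the targeted Zscan4 genes. Without them 44 passed the filter, 30 were called higher and 1 lower, and the median was 3.24. In the full list the smallest adjusted p values belonged to Zscan4c, Zscan4d, Zscan4f and Pramel7, a PRAME family gene that went from 0.468 ± 0.662 to 905 ± 75.7 normalised reads. In embryos 60 passed the filter, 32 were called lower and 4 higher, and the median was -1.80 against -0.03. Of all genes tested there, 12% were called lower and 6.13% higher. Without the Zscan4 genes 54 passed, 29 were called lower and 4 higher, and the median was -1.80. The smallest adjusted p values there belonged to Rfpl4b, Fbxo15, AU015228 and Pramel6. Rfpl4b went from 303 ± 166 to 25.6 ± 30.1 normalised reads and Pramel6 from 113 ± 34.7 to 20.1 ± 15.2 (SD, n = 5 and 6). The embryo count of lower calls in the list was 20 without control 2. Gm4340, at -0.81 in embryos, lay nearer to 0 than the median of this list, a distance that was not tested. B020031M17Rik, at 2.01 in ESCs, lay below the ESC median of the list in the main fit. That value rests on no control read and 6 reads with overexpression. It was 0.7074 with a pseudocount of 5 and 4.743 in edgeR, and no list median is given for those fits. Nothing is therefore read from the place of B020031M17Rik against the list.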

How the data were processed

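RNA from 4 ESC and 11 embryo libraries was measured. The tools were Trimmomatic, HISAT2 and featureCounts, with mm10, per the submitters' processing notes; the sources used here do not give versions, annotation, strand setting or the rule for multi-mapping reads. The authors deposited 2 tables whose unit is a normalised signal, reads per gene divided by 1 size factor per library; dividing by that step gave whole reads for 100% of values (tolerance 0.01 read). Tables were compared only within themselves. Of their columns, all were mapped by name; numbers of the embryo control columns differ from the titles and only name libraries.

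The test was limma 3.58.1 (R 4.3.3) (trend) on log2(value + 1). Genes entered when they reached 1 normalised read in 2 ESC or 5 embryo libraries; p was Benjamini-Hochberg adjusted over all genes tested, threshold 0.05, without covariates. The fit was also run on simulated data with the same relative spread for every gene. Replicate spread differed between the groups here, so that run does not measure the error rate in these libraries. Alternatives were edgeR 4.0.16 and DESeq2 1.42.0 on recovered reads, voom with quality weights, TMM and quantile scaling, other pseudocounts and filters, a replicate block in ESCs, and leaving out each library. The floor of 3 reads covers counting error in the controls only. Limma's intervals come from the spread between libraries. The members, lists and rules were chosen with earlier results of these data known. Named were the members, per member the 5 most alike genes in each table, up to 10 relatives and neighbours by mean level, and the 4 genes of the 2C list with the smallest adjusted p per comparison. Relatives by protein were foreseen; without a protein table, transcripts were aligned instead (blastn 2.17.0, GENCODE vM21), chosen after seeing the data. Sequences are from GENCODE vM21 transcripts and the RefSeq promoter table (GRCm38.p6).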

Additional observations from a re-analysis of the deposited data

Results flagged for a closer look

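In embryos, 27 genes or sums were screened for a library far from the rest of its group, in 54 group values. Of these, 10 gaps were large for the group's range. The cut-offs flag about 1 in 20 by chance only for independent values with a normal spread. The values here include many near 0 and genes that share sequence, so the 10 are not set against that rate. B020031M17Rik in control 4 measured 43.32 normalised reads, where the other controls held 81.3 to 93.8. Among copies of the row, Gm21304 measured 142.8 in RNAi 1 (other RNAi libraries 7.82 to 47.6) and Gm20765 measured 120.7 in RNAi 4 (others 0 to 39.0).

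RNAi 4 was also the highest library for the second cluster on chromosome 10, whose sum was 1186 there against 19.8 to 266 in the other RNAi libraries. Its genes measured 249.6 for Gm8723, 203.1 for Gm4312, 186.9 for Gm8711 and 121.9 for Gm4308 in that library. These genes share sequence, so their values are not separate observations, and the cause was not tested. In the controls, Gm4308 measured 10.9 in control 1 against 0 to 2.78 in the others. Gm21762, a relative of B020031M17Rik, measured 52.48 in RNAi 2 against 1.74 to 19.9 in the other RNAi libraries.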

How the results depend on the processing

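The log2 fold changes of the 3 genes kept their sign under every alternative that gave one. Leaving out 1 library gave 5.31 to 5.97 for Gm4340 and 5.69 to 9.08 for Gm6763 in ESCs, and 2.01 for B020031M17Rik, which no longer passed the filter without either overexpression library. In embryos the ranges were -1.15 to -0.49 for Gm4340, -1.73 to -0.71 for Gm6763 and -2.26 to -1.85 for B020031M17Rik. At a filter of 10, B020031M17Rik in ESCs and Gm6763 in embryos were not tested. The Zscan4 log2 ratio was 6.54 to 7.02 in ESCs and -1.89 to -1.43 in embryos.

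Over all genes, ESC counts were 1161 to 5908 higher (2453 with all libraries) and 956 to 6706 lower (2390) when any 1 library was left out, fewer without a control and more without an overexpression library; voom with quality weights called 1231 lower. In embryos, 1007 were higher and 1976 lower; leaving out 1 library gave 519 to 1320 and 1209 to 2255, with changes over 1.5 times without control 2, 3 or 4 or RNAi 3 or 6 for higher and without control 2 or 4 for lower. No filter gave 649 higher, voom with quality weights 1594 higher and edgeR 1244 lower. The cause was not tested.

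With the replicate block in ESCs, counts were 2943 and 3081, and B020031M17Rik was not called (adjusted p = 0.0719); Gm8953 and AF067063 gained a call (adjusted p = 0.036 and 0.0346). The log2 fold changes of Gm4340 (5.64), Gm6763 (7.39) and B020031M17Rik (2.01) cannot change under a block in this balanced design. The same-numbered libraries deviated with a correlation of -0.00719 across 20888 genes. With so few libraries this cannot settle whether same-numbered libraries share an origin, which the labels do not state. No paired analysis was possible because the numbers of the embryo control columns differ from those in the titles.

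With a pseudocount of 5, 3 of 15 nearest genes in ESCs and 8 of 15 in embryos were shared. Within 500 kb, B020031M17Rik had 40 neighbours instead of 25. Among named genes, signs turned without a call for Gm20765 in embryos (0.58 in edgeR, 0.54 in DESeq2, -1.35 to 0.033 without 1 library) and for Gm9458 in embryos (0.10 in edgeR, -0.86 to 0.22 without 1 library). Zfp131 in ESCs ranged from -0.099 to 0.86 without 1 library. Of 18 relatives, neighbours and 2C genes called higher in ESCs, 17 kept the call in every alternative that tested them. Of 18 called lower in embryos, 13 did. The 2C genes in both tallies were named for their small adjusted p. The ESC tally also holds the copies of the row that share a transcript with Gm6763. Keeping a call was thus partly set by the choice of genes, and nothing is read from these tallies.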
